A study of Homo sapiens with 8 samples.

Results

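Solute carriers were examined here in HEK293T, a human embryonic kidney cell line, as the genes whose symbol follows the SLC or SLCO pattern, without the mitochondrial SLC25 family and without 7 amino acid transporters (SLC7A11, SLC7A5, SLC7A1, SLC3A2, SLC38A2, SLC1A4 and SLC1A5). Of 8801 genes with a ratio in the authors' deposited tables, 107 were members, in 41 SLC families. A ratio with both siRNAs was listed for 89 of them, with siPCF11 only for 13 and with siScram only for 5. RefSeq holds 341 protein-coding symbols that follow the same rule, and 105 members are among these under the same name. The symbols of 3 members follow the pattern although their products are no carriers: SLC4A1AP encodes kanadaptin, SLC2A4RG a transcription factor, and SLC7A6OS lies on the opposite strand next to SLC7A6.

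Solute carriers are membrane proteins that move amino acids, sugars, ions, metals, vitamins and nucleotide sugars across the plasma membrane or the membranes of organelles. Most are driven by a gradient of the solute itself or of sodium, protons or chloride, rather than by ATP. In kidney epithelium carriers are known for taking filtered solutes back from the urine and for acid-base balance, while in any growing cell they feed glycolysis, protein synthesis, glycosylation and metal-dependent enzymes. In glycosylation, carriers of the SLC35 family bring activated sugars from the cytosol into the Golgi and the endoplasmic reticulum.

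The 4 groups behind the ratios were Pcif1-KO cells with siPCF11, WT cells with siPCF11, Pcif1-KO cells with siScram and WT cells with siScram, with 1 library each. All had 5 pmol siRNA and were harvested after 48 h; RNA came from isolated nuclei, and the design names s4U, a uridine analogue that marks newly made RNA, and sequencing from the 3′ end of mRNA. PCIF1 adds the methyl group that makes m6Am at the first transcribed adenosine next to the mRNA cap, PCF11 takes part in 3′ end cleavage and termination, and siScram is a scrambled control. The labels name neither the knockout allele nor the number of clones behind Pcif1-KO. No ratio of the PCIF1 gene was analysed here, and the knockout therefore had no check from its own target. The ratios compare genotypes within 1 siRNA, so a fall of PCF11 with siPCF11 was not checked either.

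Each deposited value is the log2 of the WT level divided by the Pcif1-KO level under 1 siRNA, so that a value below 0 means a higher level in Pcif1-KO cells and a value above 0 a lower one. Ratios carry no level, no error and no read depth, and in bulk RNA fewer cells with a transcript and less of it per cell cannot be told apart. Of 5 markers of the line (PAX2, LHX1, KRT8, KRT18 and VIM) 4 had a listed ratio, and of 5 markers of blood, endothelium, liver, fibroblasts and heart muscle 0 had one. The median chromosome ratio stood at -0.27 with siPCF11 and -0.29 with siScram for chromosome 11, which carries SLC35C1 and SLC43A1. For chromosome 20, which carries SLCO4A1, it stood at 0.37 with siPCF11 and 0.29 with siScram. Values centred on the chromosome, on the surrounding 10 Mb window or on each are therefore given beside the called solute carrier genes. The same was done for the uncalled SLC43A1, SLC19A1 and SLC3A2.

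Of the 89 solute carrier genes with both ratios, 5 differed between the genotypes over both siRNAs. The Golgi GDP-fucose carrier gene SLC35C1 and the chloride-bicarbonate exchanger gene SLC4A2 were higher in Pcif1-KO cells. SLCO4A1, which encodes an uptake carrier for organic anions and thyroid hormones, the iron importer gene SLC11A2 and SLC35E1, a member of the nucleotide sugar carrier family, were lower in Pcif1-KO cells. These 5 are 5.62% of the members tested, against 5.49% of all 7591 genes in the same test, a share near that background. The test was limma's moderated test of a mean ratio of 0 over the 2 siRNAs, with Benjamini-Hochberg adjustment over all genes and a threshold of 0.05, and it counts any true difference between the siRNAs as error. The 2 ratios of a gene leave 1 residual degree of freedom, and on the ratios as deposited limma used 1 SD of 0.28 for every gene. The SEs and p-values on these ratios thus rest on a spread pooled over all genes. They do not reflect how far apart a gene's own 2 ratios lie. With window centring the SD differed between genes, so the SEs given for that fit differ too. Nothing in the labels says that the 2 pairs of libraries came from separate cultures, so the p-values measure the spread between these libraries only.

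SLC35C1 (ENSG00000181830.8, GRCh38 chromosome 11, 45804079 to 45813016) had ratios of -1.03 with siPCF11 and -0.98 with siScram in the authors' deposited tables. This is 2.05-fold higher in Pcif1-KO cells with siPCF11 and 1.97-fold higher with siScram. The mean ratio was -1.01 (SE 0.20, limma adjusted p = 6.4e-05). Both siRNAs gave nearly the same value. Relative to the median of chromosome 11 the mean was -0.72 (SE 0.20, limma adjusted p = 0.0099), and relative to its 10 Mb window it was -0.75 (SE 0.18, limma adjusted p = 0.028). Among SLC35C1 and the 10 nearest listed genes, which lie within 864 kb, SLC35C1 was the lowest of 11 with siPCF11 and rank 10 from the top with siScram.

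SLC4A2 (ENSG00000164889.13, GRCh38 chromosome 7, 151058200 to 151076527) was listed at -1.05 with siPCF11 and -0.90 with siScram in the authors' deposited tables. Its level was thus 2.08-fold higher in Pcif1-KO cells with siPCF11 and 1.86-fold higher with siScram. The mean ratio was -0.98 (SE 0.20, limma adjusted p = 0.00012) and stayed at -0.82 against its 10 Mb window (SE 0.18, limma adjusted p = 0.014). SLC4A2 was below all of its 10 nearest listed genes with both siRNAs. The nearest of them, FASTK, lies 0.097 kb away and had 0.15 with siPCF11 and -0.15 with siScram in the authors' deposited tables, so the low ratio was not shared by this close neighbour.

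SLCO4A1 (ENSG00000101187.15, GRCh38 chromosome 20, 62642503 to 62690740) had the highest ratios of any member, 1.82 with siPCF11 and 1.04 with siScram in the authors' deposited tables. That is 3.54-fold lower in Pcif1-KO cells with siPCF11 and 2.06-fold lower with siScram, and the difference between the siRNAs, 0.78, has no test. The mean ratio was 1.43 (SE 0.20, limma adjusted p = 3e-10). Relative to its 10 Mb window, whose median was 0.46 with siPCF11 and 0.41 with siScram, the mean was 1.002 (SE 0.20, limma adjusted p = 0.0053). Its 10 nearest listed genes had ratios from 0.285 to 1.03 with siPCF11 and from -0.09 to 0.56 with siScram, and SLCO4A1 was above all of them with both siRNAs.

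SLC11A2 (ENSG00000110911.15, GRCh38 chromosome 12, 50952263 to 51028886) had a ratio of 0.45 with siPCF11 and 1.04 with siScram in the authors' deposited tables, the reverse order of SLCO4A1. The mean was 0.75 (SE 0.20, limma adjusted p = 0.0070). Against the 10 Mb window the mean was 0.71, but the limma adjusted p was 0.054, past the threshold. SLC35E1 (ENSG00000127526.14, GRCh38 chromosome 19, 16549837 to 16572415) was at 0.93 with siPCF11 and 0.46 with siScram in the authors' deposited tables. Its mean was 0.69 (SE 0.20, limma adjusted p = 0.015), and 0.69 against its window (limma adjusted p = 0.049). MED26, 2.5 kb from SLC35E1, was at -0.43 with siPCF11 and -0.85 with siScram in the authors' deposited tables, on the other side of 0. SLC35E1 was the highest of 11 with siPCF11 and rank 3 with siScram among its 10 nearest listed genes, and SLC11A2 was the highest of 11 with siPCF11 and rank 2 with siScram among its own, 1 of which stood at 1.15 with siScram in the authors' deposited tables.

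**Figure D1:**
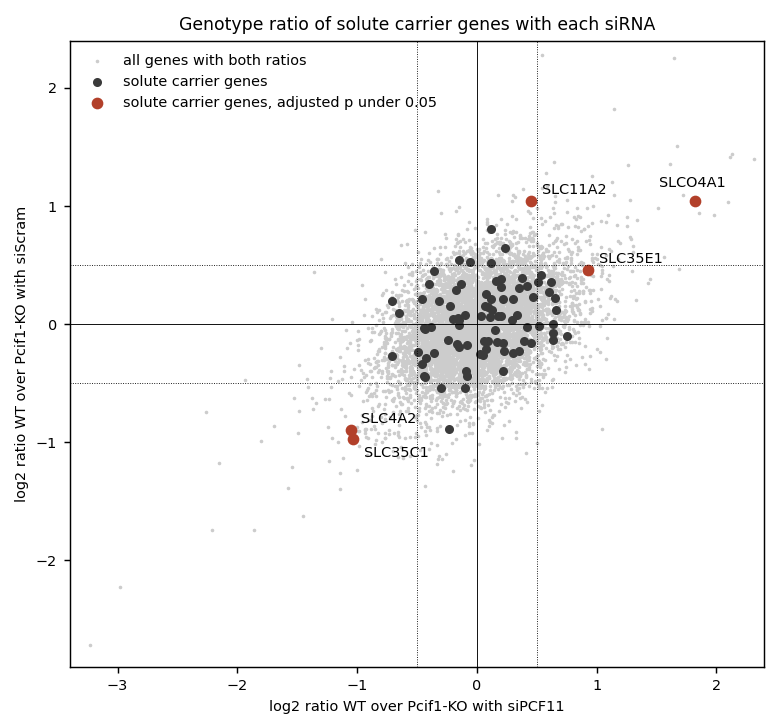
Log2 ratios of WT over Pcif1-KO with siPCF11 (horizontal axis) and with siScram (vertical axis) for all 7591 genes with both ratios (grey), for 89 solute carrier genes (black) and for the 5 called by limma at an adjusted p under 0.05 (red, named); dotted lines mark 0.5 on either side of 0. SLC35C1 and SLC4A2 lie near -1 on both axes, and SLCO4A1 lies above 1 on both, apart from the other members.

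**Figure D2:**
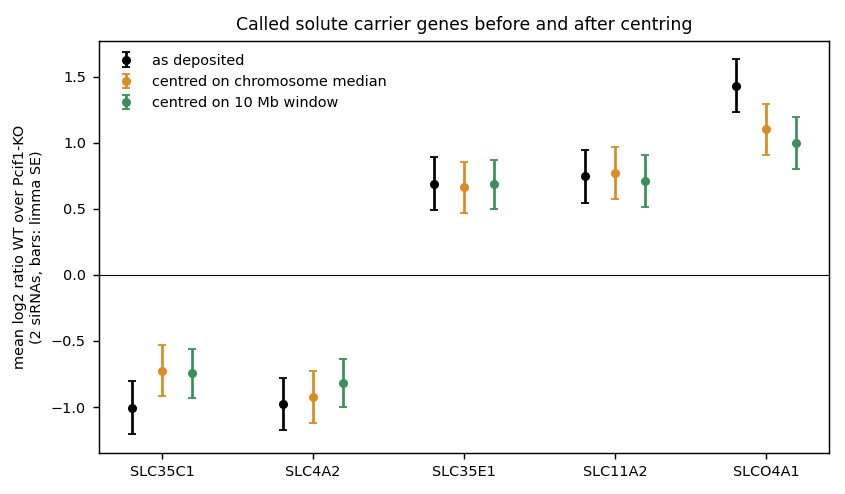
Mean log2 ratio of WT over Pcif1-KO over both siRNAs for the 5 called genes, as deposited (black), centred on the chromosome median (orange) and centred on the other genes of the 10 Mb window (green), with limma standard errors as bars. SLCO4A1 moves from 1.43 as deposited to 1.002 after window centring and SLC35C1 from -1.01 to -0.75, and none of the 5 changes sign.

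Start-site sequences are shown for the 4 called genes with an entry in the RefSeq promoter table and for SLC29A3, an uncalled member of the m6Am class, because the m6Am mark needs an adenosine as first transcribed base. Each run has 30 bases, 5′ to 3′ on the gene's strand in GRCh38.p14, and the single capital marks the first base of the outermost RefSeq transcript.
SLC35C1, non-m6Am class, chr11:45804059-45804088, plus strand: agaatccgagcggtccccgcAcgcacttct
SLC4A2, m6Am class, chr7:151058180-151058209, plus strand: gtgccccgctgttgttattcCttttatgtg
SLC11A2, m6Am class, chr12:51028877-51028906, minus strand: ggtttttttcctttctttttCttttccatc
SLC35E1, non-m6Am class, chr19:16572406-16572435, minus strand: ccccgcccagccccgcccccGcccggcgtc
SLC29A3, m6Am class, chr10:71319239-71319268, plus strand: gcctgccgcctgccaagcccAgtggtcctg

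The capital is an A in SLC35C1, which the authors placed in the non-m6Am class, and a C in SLC4A2 and SLC11A2, which they placed in the m6Am class. SLC29A3, also of the m6Am class, has an A after a C. It does not stand for the other uncalled m6Am members named by the rule with a matched start. Of these, SLC10A3, SLC35A4 and SLC39A9 have an A, and SLC16A9, SLC20A1, SLC39A3 and SLC9A3 have a G. A RefSeq start was matched for 74 members. An A stood there in 19 of 35 m6Am members (54.3%) and in 17 of 39 non-m6Am members (43.6%), against 50% of 3287 m6Am genes and 39.1% of 3175 non-m6Am genes in all. The letters CA, with the C just before the start and the A at it, were found in 42.9% of m6Am and 30.8% of non-m6Am members, against 37.6% of all m6Am and 29% of all non-m6Am genes. Over all 35116 promoters in the RefSeq table, CA stood at the start in 29.6% and an A in 44.4%; only the gene's strand was read at this position. These are annotated starts and not those measured in these cells.

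As a group the solute carrier genes lay close to all genes. The median ratio of the members was 0.072 with siPCF11 (102 genes, middle 50% -0.22 to 0.29) and 0.017 with siScram (94 genes, -0.22 to 0.23). Over all genes the medians were -0.010 with siPCF11 (8499 genes) and -0.0096 with siScram (7893 genes). Ratios above 0 were found for 57 of 102 members with siPCF11 (55.9%, against 48.9% of all genes) and for 48 of 94 with siScram (51.1%, against 48.9%). With both siRNAs 33 of 89 members were above 0 (37.1%, against 30.2% of all genes), 22 were below 0 (24.7%, against 31.5%) and 34 were split (38.2%, against 38.3%).

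With siPCF11, 13 of 102 members were above 0.5 (12.7%, against 8.81% of all genes) and 6 below -0.5 (5.88%, against 8.7%). With siScram, 7 of 94 were above 0.5 (7.45%, against 6.11%) and 5 below -0.5 (5.32%, against 6.98%). A ratio of 0.5 is a 1.41-fold difference. Beyond this size with both siRNAs there was 1 member above, SLCO4A1 (1.12%, against 2.13% of all genes), and there were 2 below, SLC35C1 and SLC4A2 (2.25%, against 2.25%). These shares describe single libraries and were given no test.

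**Figure D3:**
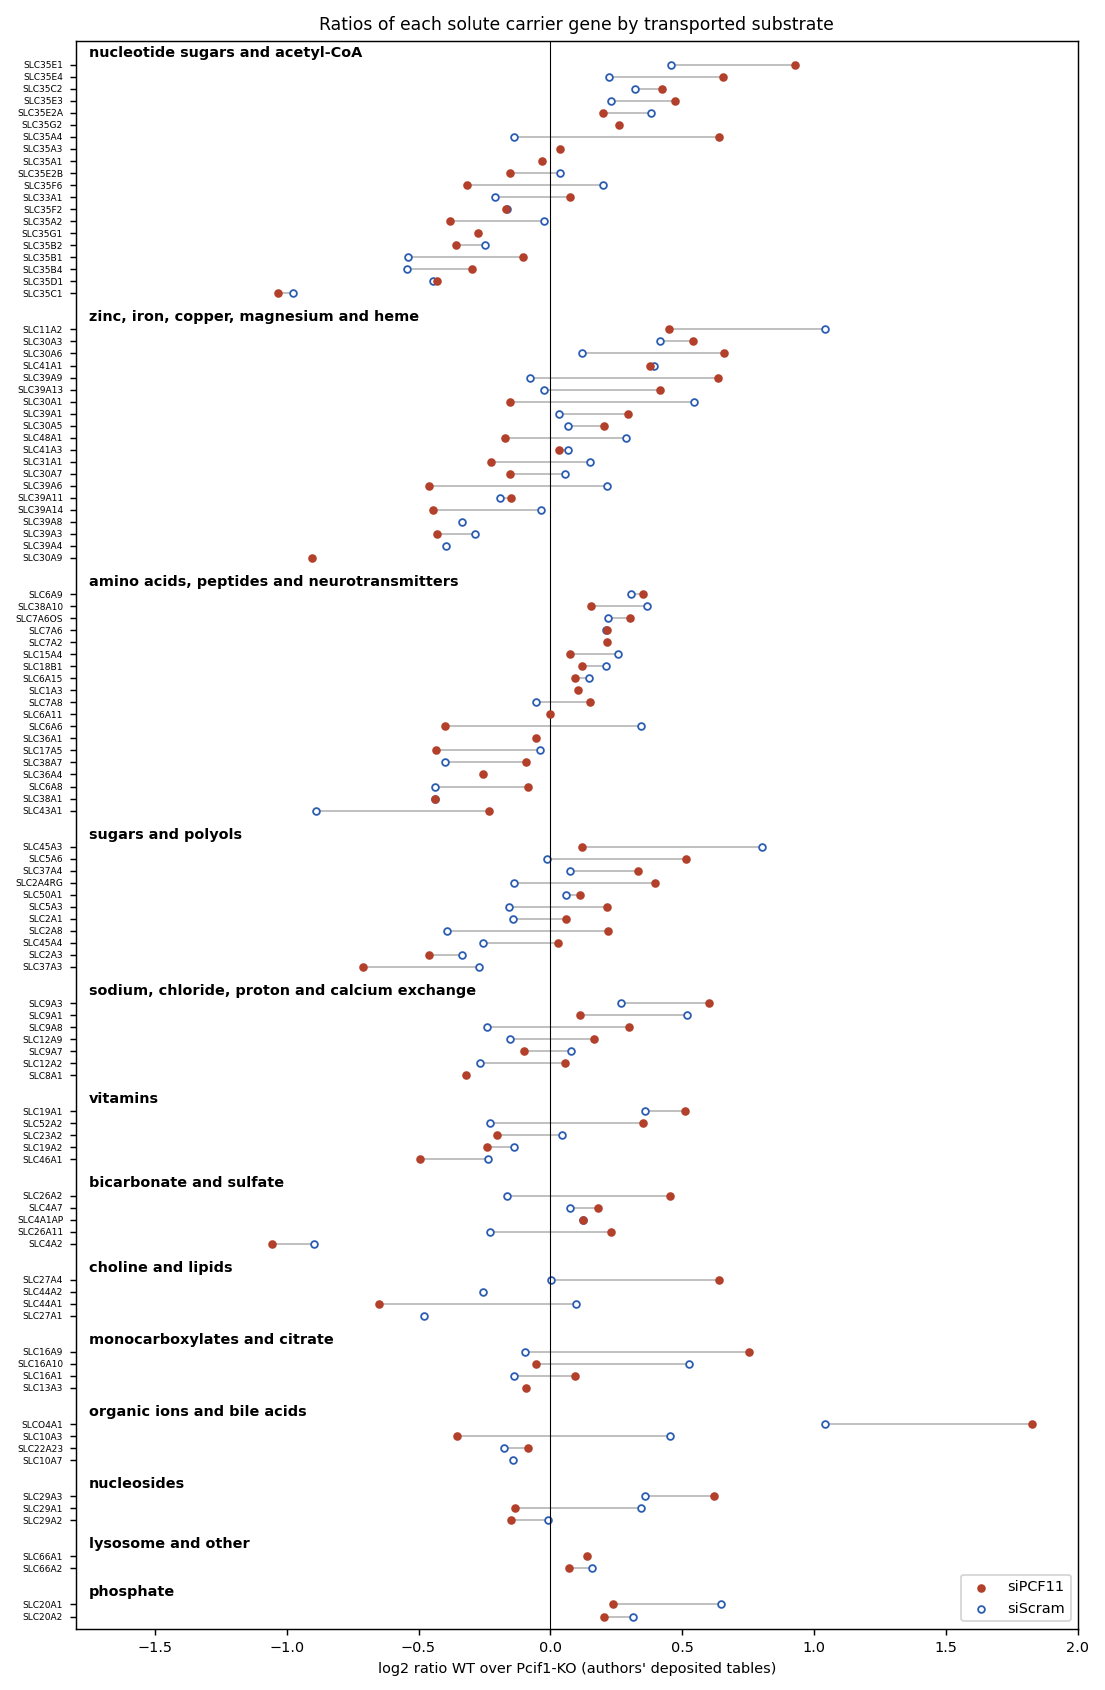
WT over Pcif1-KO ratio, as log2, of 106 of the 107 solute carrier genes with siPCF11 (filled red) and siScram (open blue), joined by a line where both were listed, in groups by what the family carries and ordered by mean within a group. Most genes lie within 0.5 of 0, and SLCO4A1, SLC11A2, SLC35E1, SLC4A2, SLC35C1 and SLC30A9 are the 6 that reach past 0.9 on either side of 0 with some siRNA.

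Among carriers of nucleotide sugars and acetyl-CoA, SLC35E1 and SLC35C1 were the called genes, 1 in each direction. Of 16 genes with both ratios 5 were above 0 and 7 below 0 with both siRNAs, and the group's medians were -0.07 with siPCF11 (20 genes) and -0.08 with siScram (16 genes). SLC35D1, which brings UDP-glucuronic acid into the endoplasmic reticulum, had -0.43 with siPCF11 and -0.44 with siScram in the authors' deposited tables. SLC35B4, a carrier of UDP-xylose and UDP-N-acetylglucosamine, was at -0.30 with siPCF11 and -0.54 with siScram in the authors' deposited tables. Both had the same sign with each siRNA and neither passed the test. At the upper end next to SLC35E1, the orphan SLC35E4 had 0.66 with siPCF11 and 0.22 with siScram in the authors' deposited tables. SLC35A4 was split, at 0.64 with siPCF11 and -0.14 with siScram in the authors' deposited tables, a difference of 0.78. Within the SLC35E branch all of SLC35E1, SLC35E3, SLC35E4 and SLC35E2A were above 0 with both siRNAs in the authors' deposited tables, while the mean of SLC35E2A centred on its window was -0.05. SLC35E2B was at -0.15 with siPCF11 and 0.04 with siScram in the authors' deposited tables. SLC35E2A and SLC35E2B are near-identical copies on chromosome 1, so reads may have been split between them and their values are uncertain.

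Metal carriers form the other group of 20 members. Of 17 with both ratios 7 were above 0 with both siRNAs, 3 below and 7 split, and SLC11A2 was the only one called. Zinc is moved out of the cytosol by SLC30 proteins and into it by SLC39 proteins. With siScram 0 of 5 SLC30 genes and 7 of 9 SLC39 genes were below 0, with medians of 0.12 for SLC30 and -0.08 for SLC39. With siPCF11 3 of 6 SLC30 genes and 4 of 7 SLC39 genes were below 0, with medians of 0.02 for SLC30 and -0.15 for SLC39. Over all genes 48.9% were above 0 with either siRNA. The medians of SLC30 were above those of SLC39 with both siRNAs, and the difference between the families has no test here. Centred on the window, the medians with siPCF11 were 0.05 for SLC30 and -0.01 for SLC39, and centred on the chromosome 0.02 and -0.20. With siScram they were 0.11 and -0.10 on the window and 0.10 and -0.11 on the chromosome.

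Among the SLC30 genes, the vesicular zinc carrier gene SLC30A3 had 0.54 with siPCF11 and 0.42 with siScram in the authors' deposited tables, a mean of 0.48 (SE 0.20) that did not pass the test. SLC30A1, the zinc exporter of the plasma membrane, was at -0.15 with siPCF11 and 0.54 with siScram in the authors' deposited tables. SLC30A9, a mitochondrial zinc carrier, was listed only with siPCF11, at -0.91 in the authors' deposited tables, a level 1.87-fold higher in Pcif1-KO cells with no second ratio to set beside it. Of the SLC39 genes SLC39A3 was lowest by its mean, at -0.43 with siPCF11 and -0.29 with siScram in the authors' deposited tables. SLC39A9 was highest by its mean, with 0.63 with siPCF11 and -0.08 with siScram in the authors' deposited tables. The magnesium carrier gene SLC41A1 had nearly equal ratios of 0.38 with siPCF11 and 0.39 with siScram in the authors' deposited tables.

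**Figure D4:**
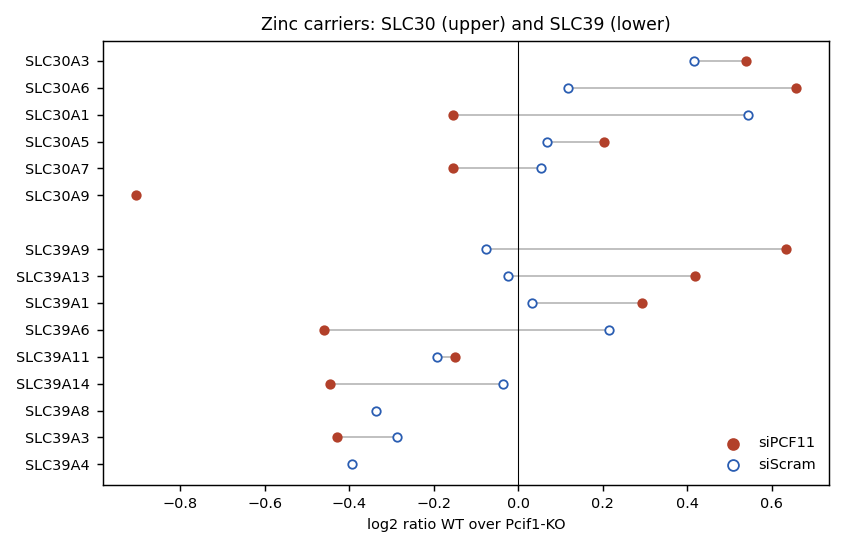
WT over Pcif1-KO ratio, as log2, of the SLC30 genes (upper block) and the SLC39 genes (lower block) with siPCF11 (filled red) and siScram (open blue). All 5 SLC30 genes measured with siScram lie above 0, from 0.05 for SLC30A7 to 0.54 for SLC30A1, and 7 of 9 SLC39 genes lie below it. With siPCF11 3 of 6 SLC30 genes and 4 of 7 SLC39 genes lie below 0. Over all genes 48.9% were above 0 with siScram, and the difference between the families has no test.

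Carriers of amino acids, peptides and neurotransmitters had 14 genes with both ratios, of which 7 were above 0 and 5 below 0 with both siRNAs. Limma called 0 of the 14 at an adjusted p under 0.05, with 2 at an unadjusted p under 0.05. Of all 89 members tested 18 had an unadjusted p under 0.05. This share was not taken over all genes, so whether it is high for a gene set is unknown. SLC43A1, a sodium-independent carrier of large neutral amino acids on chromosome 11, was lowest, at -0.23 with siPCF11 and -0.89 with siScram in the authors' deposited tables. Its mean of -0.56 had a limma adjusted p of 0.073, and relative to chromosome 11 it was -0.28 (limma adjusted p = 0.52). The glutamine carrier gene SLC38A1 was at -0.44 with both siRNAs in the authors' deposited tables. At the upper end, SLC6A9, which takes up glycine, had 0.35 with siPCF11 and 0.31 with siScram in the authors' deposited tables. The taurine carrier gene SLC6A6 stood on opposite sides of 0, at -0.40 with siPCF11 and 0.34 with siScram in the authors' deposited tables. SLC7A6 and the neighbouring SLC7A6OS, whose RefSeq spans overlap, were at 0.22 and 0.30 with siPCF11 and at 0.21 and 0.22 with siScram in the authors' deposited tables.

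Of the 7 amino acid transporters left out by the rule, SLC3A2, the heavy chain of several of these carriers, was lowest by its mean, with -0.24 with siPCF11 and -0.62 with siScram in the authors' deposited tables. SLC7A1, an importer of cationic amino acids, was highest, with 0.38 with siPCF11 and 0.56 with siScram in the authors' deposited tables. SLC3A2 lies on chromosome 11, and its mean of -0.43 became -0.15 when centred on that chromosome (limma adjusted p = 0.78) and -0.19 on the window, where SLC7A11 was lowest of the 7 at -0.36 under either centring. Limma called 0 of the 7 as deposited, whose adjusted p-values were 0.17 or more. An unadjusted p under 0.05 was found for 2 of them, against 18 of the 89 members tested, and neither share was set against all genes.

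Of the 11 members in families of sugar and polyol carriers, 6 were split between the siRNAs (54.5%, against 38.3% of all genes), 3 were above 0 with both and 2 below, with no test of the split. With siPCF11 2 of 11 were below 0 (median 0.12), and with siScram 8 of 11 were (median -0.14). Limma called 0 of them at an adjusted p under 0.05. An unadjusted p under 0.05 was found for 3, against 18 of all 89 members tested, and this share was not taken over all genes. The group, made by family, holds SLC2A4RG, which encodes no carrier, and SLC5A6, a multivitamin carrier. Of the glucose transporters, SLC2A3 was at -0.46 with siPCF11 and -0.33 with siScram in the authors' deposited tables, while SLC2A1, the main glucose importer of many cell lines, was at 0.06 with siPCF11 and -0.14 with siScram. SLC2A3 has a near-identical copy, SLC2A14, so its counts are uncertain. SLC37A3, of the sugar phosphate carrier family, had the lowest mean, with -0.71 with siPCF11 and -0.27 with siScram in the authors' deposited tables. SLC45A3 had the highest, with 0.12 with siPCF11 and 0.80 with siScram in the authors' deposited tables.

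Ion exchangers had 7 genes with both ratios, all of the SLC9 and SLC12 families, while SLC8A1 was listed with siPCF11 only. Of the 7, 5 were split between the siRNAs (71.4%, against 38.3% of all genes), with no test of the split. The sodium-proton exchanger gene SLC9A3 was above 0 with both, at 0.60 with siPCF11 and 0.27 with siScram in the authors' deposited tables. The sodium-potassium-chloride cotransporter gene SLC12A2 was near 0, at 0.05 with siPCF11 and -0.27 with siScram in the authors' deposited tables. In the bicarbonate and sulfate group, which by its symbol also holds SLC4A1AP, SLC4A2 was alone below 0 with both siRNAs. The sulfate carrier gene SLC26A2 was at 0.45 with siPCF11 and -0.16 with siScram in the authors' deposited tables.

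Among vitamin carriers SLC19A1 and SLC46A1, which both import folates, lay on opposite sides of 0. SLC19A1 had 0.51 with siPCF11 and 0.36 with siScram in the authors' deposited tables, and it overlaps COL18A1, which had 0.49 with siPCF11 and 0.29 with siScram. The mean of SLC19A1, on chromosome 21, was 0.43 as deposited, 0.27 centred on the chromosome and 0.17 centred on the window. SLC46A1 had -0.50 with siPCF11 and -0.24 with siScram in the authors' deposited tables. Neither passed the test. Both phosphate importers were above 0 with both siRNAs, SLC20A1 at 0.24 with siPCF11 and 0.65 with siScram in the authors' deposited tables. The lysosomal nucleoside carrier gene SLC29A3 had 0.62 with siPCF11 and 0.36 with siScram in the authors' deposited tables, a mean of 0.49 (SE 0.20, limma adjusted p = 0.14).

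Further members had unlike ratios with the 2 siRNAs, a difference that has no test with 1 library per group. SLC16A9, of the monocarboxylate carrier family, had 0.75 with siPCF11 and -0.10 with siScram in the authors' deposited tables, the largest upward difference of any member at 0.85. The choline carrier gene SLC44A1 was at -0.65 with siPCF11 and 0.10 with siScram in the authors' deposited tables. SLC10A3, of the bile acid carrier family, was at -0.35 with siPCF11 and 0.45 with siScram in the authors' deposited tables. Over the 89 members 47 had a higher ratio with siPCF11 than with siScram (52.8%, against 50.8% of all genes), and the median difference was 0.014, against 0.0072 for all genes. Listed genes with an overlapping RefSeq span were found for 16 of the 107 members. Among genes named above, SLC35D1 overlaps MIER1, which had -0.80 with siPCF11 and -0.06 with siScram in the authors' deposited tables. SLC35E4 overlaps DUSP18, at 0.36 with siPCF11 and 0.26 with siScram. SLC46A1 overlaps SARM1, at 0.10 with siPCF11 and -0.36 with siScram.

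By the authors' classes, 50 members were m6Am and 57 non-m6Am genes, and 71 were in the long and 36 in the short class. Their median RefSeq span was 36.8 kb, against 30.04 kb for all listed genes. Long m6Am members had medians of 0.23 with siPCF11 (22 genes) and 0.15 with siScram (19 genes). Of the 19 with both ratios 12 were above 0 with both siRNAs (63.2%, against 32.7% of all long m6Am genes). Below 0 with both was 1, SLC38A1 (5.26%, against 27.7%). All long m6Am genes had medians of 0.01 with siPCF11 and 0.02 with siScram. Short m6Am members were at 0.07 with siPCF11 and -0.04 with siScram, close to all short m6Am genes at 0.04 and -0.03. The long non-m6Am members were at 0.03 with siPCF11 and 0.07 with siScram, against -0.06 and -0.01 for all genes of that class. The 8 short non-m6Am members were at -0.15 with siPCF11 and -0.17 with siScram, against -0.01 and -0.03 for all short non-m6Am genes. Of the called genes the 3 lower in Pcif1-KO cells are all in the long class and the 2 higher in Pcif1-KO cells are both in the short class. Over all genes limma called 101 long genes as lower and 90 as higher in Pcif1-KO cells, and 102 short genes as lower and 124 as higher. Classes were given no test, since genes are not replicates.

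**Figure D5:**
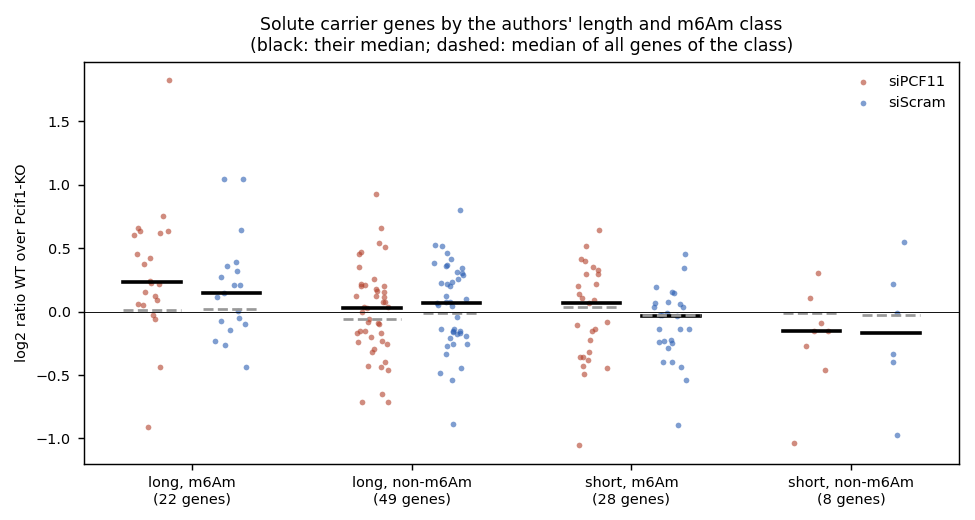
Log2 ratio of WT over Pcif1-KO of each solute carrier gene by the authors' length and m6Am class, with siPCF11 (red, left of each pair) and siScram (blue, right); black bars are the members' medians and dashed grey bars the medians of all listed genes of the class. Long m6Am members have medians of 0.23 with siPCF11 and 0.15 with siScram, above those of all long m6Am genes.

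Genes that work with the carriers were taken from 3 further lists. Of 22 listed partners and regulators 20 had both ratios, of which 13 were below 0 with both siRNAs and 3 above, with medians of -0.28 with siPCF11 and -0.12 with siScram; over all genes with both ratios 31.5% were below 0 with both. BSG, the basigin chaperone that brings lactate carriers to the plasma membrane, had -0.92 with siPCF11 and -0.96 with siScram in the authors' deposited tables and was called as higher in Pcif1-KO cells (mean -0.94, SE 0.20, limma adjusted p = 0.00026). NHERF2, a scaffold of sodium-proton exchangers, had -0.52 with siPCF11 and -0.79 with siScram in the authors' deposited tables and was called in the same direction (mean -0.65, SE 0.20, limma adjusted p = 0.026). These are 2 called of the 20 partners and regulators tested, against 5.49% of all 7591 genes, and the list as a set was not tested. The lactate carrier gene SLC16A1, a client of basigin, was at 0.09 with siPCF11 and -0.14 with siScram in the authors' deposited tables. The related scaffold NHERF1 was at 0.40 with siPCF11 and 0.53 with siScram in the authors' deposited tables and was not called.

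Sodium pump and proton pump subunits, which set the gradients that many carriers use, had 19 listed genes, with 4 above 0 and 4 below 0 with both siRNAs and medians of -0.01 with siPCF11 and 0.06 with siScram. The proton pump subunit ATP6V0A2 was lowest by its mean, with -0.55 with siPCF11 and -0.32 with siScram in the authors' deposited tables. ATP6AP1, an accessory subunit of the pump, was highest, with 0.64 with siPCF11 and -0.08 with siScram in the authors' deposited tables. Of 26 listed carriers that go by other symbols 21 had both ratios, with 7 above 0 and 4 below 0 with both siRNAs. TMEM104 was highest, with 0.56 with siPCF11 and 0.40 with siScram in the authors' deposited tables. MFSD10 was lowest, with -0.34 with siPCF11 and -0.40 with siScram in the authors' deposited tables. Limma called 0 genes of the pump list and 0 of the carriers with other symbols at an adjusted p under 0.05. An unadjusted p under 0.05 was found for 1 and 2 genes, against 18 of the 89 solute carrier genes tested. These shares were not set against all genes.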

How the data were processed

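Nuclear RNA was read from its 3′ end in 8 libraries, of which 4 stand behind the deposited ratios and 4, Pcif1-KO cells carrying PCIF1-WT, PCIF1-CD (2 libraries) or EGFP, were not analysed here. Values were deposited by the authors as log2 ratios of WT over Pcif1-KO per gene, in 2 tables split by length class, each with the ratios of both siRNAs in separate columns for m6Am and non-m6Am genes. Per the submitters' processing notes the tools were STAR 2.7.10a, HTSeq 2.0.1, cutadapt 3.7, bcl2fastq 2.20 and DESeq2 1.30.1, on build hg38, and neither order nor settings are recorded there. How the libraries were scaled, which reads were counted, whether by strand, and which genes were dropped is not stated in the labels or the file headers. The depth per library is unknown, so no value has a counting interval.

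Gene IDs were matched to symbols for 8792 genes (99.9%) and to RefSeq spans of GRCh38.p14 for 8771 (99.7%). Start bases came from RefSeq's promoter table. Both ratios of a gene were fitted with limma 3.58.1 in R 4.3.3 as an intercept over the 2 siRNAs, on all 7591 genes with both, and p-values were adjusted by Benjamini and Hochberg over all of them; the step was tested on simulated data. Alternatives were centring on all genes, the chromosome or the 10 Mb window (on the chromosome where the window holds under 15 other genes), other thresholds and sizes, robust shrinkage, other member sets and leaving out either siRNA.

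The members and lists were chosen with earlier results of these data known. Genes were named where limma called them, where they were among the 10 highest or 10 lowest means, past 0.5 with both siRNAs, among the 4 largest differences between the siRNAs either way, or at the ends of a role group with at least 5 members measured with both or of a list. Other genes, among them SLC2A1, SLC12A2, SLC16A1, SLC30A1, SLC30A9, SLC41A1, NHERF1 and further SLC35E genes, were named after their values were seen. The values of 1 gene that the rule names are not reported here.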

Additional observations from a re-analysis of the deposited data

Results flagged for a closer look

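In 4 genes the ratios with the 2 siRNAs lay on opposite sides of 0, each by more than the fitted SD of 0.28, and the difference was not tested because each genotype and siRNA has 1 library. The taurine carrier gene SLC6A6 had -0.40 with siPCF11 and 0.34 with siScram in the authors' deposited tables, a difference of -0.74. SLC10A3 had -0.35 with siPCF11 and 0.45 with siScram in the authors' deposited tables, a difference of -0.81. Among the proton pump subunits, ATP6V0A1 had 0.49 with siPCF11 and -0.48 with siScram in the authors' deposited tables, a difference of 0.97. ATP6V1C1 had -0.54 with siPCF11 and 0.44 with siScram in the authors' deposited tables, a difference of -0.99. Opposite ratios of this size were found in 2 of 89 solute carrier genes (2.25%), against 270 of 7591 genes in all (3.56%). The 2.25% covers SLC6A6 and SLC10A3 and not the 2 proton pump subunits, for whose list no share was taken.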

How the results depend on the processing

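The members' median with siPCF11 kept its sign under the 7 alternatives tried. With siScram the median of 0.017 turned to -0.0102 with the 7 amino acid transporters put back. Without chromosomes 11, 20, 21 and X, which carry SLCO4A1 and SLC35C1, limma called 3 members and 1 was beyond 0.5 with both siRNAs, against 5 and 3. Beyond a size of 1 with both siRNAs there was 1 member of 89 and beyond 0.3 there were 14. A smaller size gives more genes in any set. The counts at these sizes, and the size count without the 4 chromosomes, were not taken over all genes. Leaving out 1 siRNA gave 12 to 19 members beyond 0.5 with the other one, with no test: 19 with siPCF11 and 12 with siScram. After window centring limma called 4 members, without SLC11A2 (mean 0.71, adjusted p = 0.054, against a range of 0.0045 to 0.054 over its 5 alternatives). Over all genes limma called 417 of 7591 as deposited, 184 of 7568 after window centring and 255 of 6619 without the 4 chromosomes. Each ratio sets WT against Pcif1-KO under the same siRNA, so the fit over both ratios is already paired by siRNA, and no fit by replicate number could be made with 1 library per group. Among uncalled genes whose means came nearer to 0 by over 1.5 times with window centring were SLC35E4 0.24 against 0.44 as deposited, SLC45A3 0.28 against 0.46, SLC41A1 0.21 against 0.38, SLC46A1 -0.17 against -0.37, ATP6V0A2 -0.22 against -0.43 and SLC7A6OS 0.15 against 0.26. The values of single genes under the alternatives kept their sign, and their call where a test was made, in 224 cases. In 26 cases, all with 1 siRNA left out and no test, the value moved by more than the SD of 0.28 or changed sign. The call was lost in 1 case. Shifts of size by centring were not counted as moves, such as that of SLCO4A1 from 1.43 to 1.002 with window centring. Depth is unknown, so genes with few reads cannot be told from the others.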
